A study of Mus with 10 samples.

Results

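The 44 genes described here are 40 interferon-stimulated genes and the 4 chains of the receptors for type I interferon and for interferon-γ, measured by RNA sequencing in type 1 innate lymphoid cells (ILC1s) of the mouse liver. They were chosen by name, as a list of gene symbols, and all 44 were found among the 24564 genes of the deposited count table. The cells came from C57BL/6 mice of 6 to 8 weeks that the study describes as male or female, and for which no treatment is given. Ncr1+/+ mice are the wild type. In Ncr1gfp/gfp mice the *gfp* sequence replaces *Ncr1*, the gene of the activating receptor NKp46, in every cell that uses the locus, so the deletion is not limited to ILC1s. The methods say that the Ncr1+/+ mice were bought and refer to an earlier report for the Ncr1gfp/gfp mice, whereas the reporting summary says that both were bought. Littermates are not mentioned, so a difference between colonies cannot be told apart from the genotype. There were 5 libraries of each genotype. Both genotypes were sorted as lineage-negative NK1.1+ CD49b- CD49a+ cells, but Ncr1+/+ ILC1s were gated with an antibody to NKp46 and Ncr1gfp/gfp ILC1s by GFP, so the gate and the genotype cannot be told apart. Whether a library holds the RNA of 1 mouse or of several is not given in the sources used here, although the study's legends speak of RNA pools, and the p-values therefore measure the spread between these libraries.

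Type I interferons bind IFNAR1 and IFNAR2, and interferon-γ binds IFNGR1 and IFNGR2. Both receptors act through Janus kinases on STAT transcription factors, which switch on a shared and partly distinct set of interferon-stimulated genes whose products sense viral nucleic acid, block viral replication, attack the vacuoles of intracellular microbes and tag proteins with the ubiquitin-like ISG15. ILC1s are themselves known as an early source of interferon-γ in the liver, and these genes are a common readout of how much interferon a cell has met.

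The total count per library was 17996935 to 22623133 in Ncr1+/+ ILC1s and 15796253 to 21975879 in Ncr1gfp/gfp ILC1s (2-sided exact permutation test, p = 0.254). *Ncr1* itself was at 1913 to 2144 CPM (counts scaled to the library size, with TMM factors) in Ncr1+/+ and at 141 to 356 CPM in Ncr1gfp/gfp ILC1s, with no overlap (2-sided exact permutation test, p = 0.00794, the lowest value possible for 5 libraries against 5). A count of 3 in a library, taken as the limit of detection, corresponded to 0.132 to 0.190 CPM. All 10 ILC1 markers that the table holds were above 1 CPM. Their sum, which includes *Ncr1*, was 10293 to 10599 CPM in Ncr1+/+ and 8182 to 8577 CPM in Ncr1gfp/gfp ILC1s. These ranges did not overlap (2-sided exact permutation test, p = 0.00794). The deleted *Ncr1* alone had a mean of 2029 CPM in Ncr1+/+ and 259 CPM in Ncr1gfp/gfp ILC1s. The test of the sum therefore cannot show a difference in the other markers, and a sum without *Ncr1* was not tested. Of the 10 markers, 3 had the higher mean in Ncr1gfp/gfp ILC1s. *Il7r* was at 131 to 199 CPM in Ncr1+/+ and 45.1 to 135 CPM in Ncr1gfp/gfp ILC1s. The mice are described as male or female, but in all 10 libraries the Y-linked *Ddx3y* was at 133 to 171 CPM and *Xist*, which is expressed from the inactive X chromosome of females, at no more than 1.09 CPM. This is the pattern of male cells in every library. Liver RNA from hepatocytes was uneven: the summed CPM of 7 hepatocyte genes was 63.9 in Ncr1gfp/gfp replicate 3 and 33.0 in Ncr1+/+ replicate 1, against 1.81 to 5.90 in the other 8 libraries.

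The levels of the interferon genes overlapped between Ncr1+/+ and Ncr1gfp/gfp ILC1s, and none of those tested passed the test between the genotypes. Of the 44 genes, 43 had enough counts to be tested; the exception was *Oas2*. With the thresholds of the study's methods (adjusted p under 0.05, together with a fold change over 1.5 or under 0.7), 0 of 43 were called, where 84 of all 11463 tested genes, or 0.733%, were called (quasi-likelihood test of edgeR, Benjamini-Hochberg adjusted). Without the fold threshold the count was again 0 of 43, against 1.35% of all tested genes, and the smallest adjusted p was 0.0634, for *Iigp1*. At an unadjusted p under 0.05 there were 8 genes, or 18.6%, against a background of 11.4%. Of these 8, *Ifit1*, *Ifih1*, *Ddx58*, *Rtp4* and *Xaf1* had the higher mean in Ncr1gfp/gfp ILC1s, and *Iigp1*, *Samhd1* and *Ifngr1* had the lower. The background was 5.46% for higher and 5.91% for lower genes. No gene of the 43 separated the libraries of the genotypes without overlap, as 3.11% of all tested genes did.

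The fitted differences were small and were bounded on both sides for most of the genes. A log2 fold change is given here as Ncr1gfp/gfp against Ncr1+/+, so that positive values mean more RNA in Ncr1gfp/gfp ILC1s. Its median was 0.03 over the 43 genes and 0.00 over all tested genes. Of the 43, 31 lay within 0.2 of 0, as did 8316 of all 11463 tested genes. The median of its size was 0.10 over the 43 genes and 0.10 over all tested genes. For 34 of the 43 genes, the 95% interval of the fold change stayed within 1.5-fold either way, and for 25 it stayed within 1.25-fold. The shares over all tested genes were 70.9% and 42.8%. In bulk RNA, fewer cells that express a gene and less RNA per cell cannot be told apart.

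**Figure D1:**
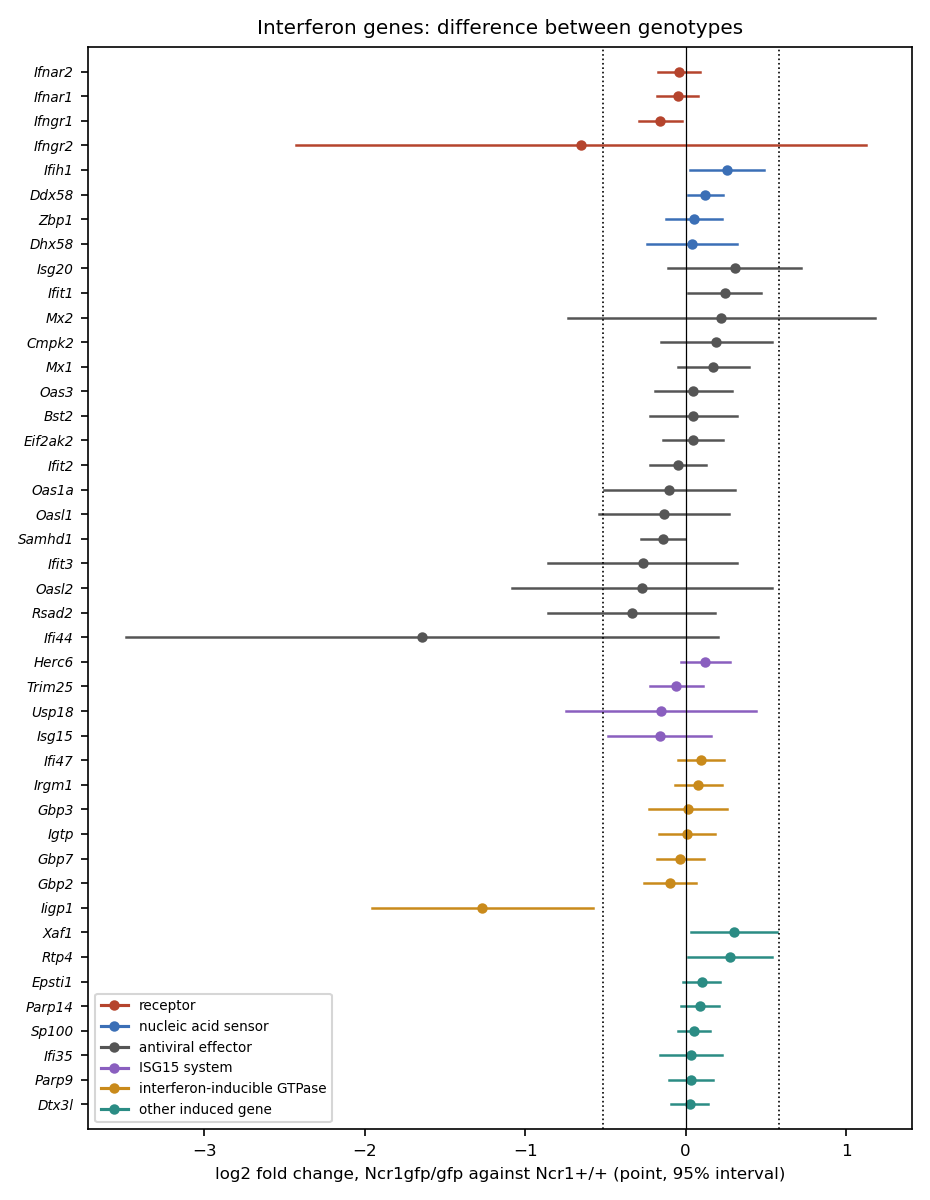
Log2 fold change of each of the 43 tested genes (x axis, Ncr1gfp/gfp against Ncr1+/+) with its 95% interval as a line, in colours by role; the dotted lines mark fold changes of 0.7 and 1.5. The interval of *Iigp1* is the only one that lies wholly outside the dotted lines, and the widest intervals belong to *Ifi44*, *Ifngr2* and *Mx2*.

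The receptor chains, through which a cell receives interferon, were examined first. *Ifnar2*, *Ifnar1* and *Ifngr2* are listed in one stretch on the plus strand of chromosome 16, at 91373028 to 91405834, 91485460 to 91510767 and 91547339 to 91564252, and *Ifngr1* on the plus strand of chromosome 10 at 19311755 to 19330033. These are the positions as the count table lists them. The table names no build, and its positions differ from those of GRCm38, also known as mm10, the build to which the study's methods say the reads were aligned. To compare genes with each other, CPM was divided by the exon length in kilobases (RPKM). *Ifngr1* had the highest level of the 4, at 169 ± 13.3 RPKM in Ncr1+/+ and 152 ± 12.5 RPKM in Ncr1gfp/gfp ILC1s (SD, n = 5 each). *Ifnar2* followed at 53.9 ± 1.81 and 52.5 ± 4.12 RPKM, and *Ifnar1* at 30.9 ± 1.88 and 29.8 ± 2.04 RPKM. These 3 chains kept the same order in every library.

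*Ifngr2* was far below the other chains. Its level was 0.325 ± 0.141 RPKM in Ncr1+/+ and 0.202 ± 0.302 RPKM in Ncr1gfp/gfp ILC1s (SD, n = 5 each). The mean level of *Ifngr1* over the 10 libraries was 609 times that of *Ifngr2*, whereas *Ifnar2* was 1.75 times *Ifnar1*. The counts of *Ifngr2* were 10, 7, 16, 12 and 20 in Ncr1+/+ replicates 1 to 5, against 0, 3, 28, 8 and 0 in Ncr1gfp/gfp replicates 1 to 5. The chain that completes the interferon-γ receptor was thus at or under the limit of detection in 3 Ncr1gfp/gfp libraries, and the highest library was also Ncr1gfp/gfp. The 95% interval of the *Ifngr2* fold change reached from 0.186 to 2.18, with a biological coefficient of variation between libraries of 0.762. The highest library, Ncr1gfp/gfp replicate 3, also had the highest sums of hepatocyte genes (63.9 CPM) and of 5 neutrophil genes (10.2 CPM). Without it the log2 fold change went from -0.65 to -2.08 (adjusted p = 0.384, edgeR quasi-likelihood fit). Whether other cells gave these counts was not tested.

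Between the genotypes, *Ifngr1* had 337, 389, 387, 335 and 338 CPM in Ncr1+/+ replicates 1 to 5, against 333, 274, 335, 324 and 336 CPM in Ncr1gfp/gfp replicates 1 to 5. Replicates 2 and 3 of Ncr1+/+ were the high ones and replicate 2 of Ncr1gfp/gfp the low one, while the other 7 libraries lay between 324 and 338 CPM, so the genotypes overlapped. In the edgeR quasi-likelihood fit the log2 fold change was -0.16 ± 0.07 (SE, adjusted p = 0.330), and the 2-sided exact permutation test of CPM gave p = 0.0159. Without Ncr1gfp/gfp replicate 2 the unadjusted p of the edgeR fit rose from 0.0253 to 0.0908.

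*Ifnar1* had 197, 212, 231, 216 and 226 CPM in Ncr1+/+ and 227, 193, 206, 199.5 and 219.9 CPM in Ncr1gfp/gfp replicates 1 to 5. *Ifnar2* had 174, 167, 177, 174 and 163 CPM in Ncr1+/+ and 184, 149, 173, 165 and 163 CPM in Ncr1gfp/gfp replicates 1 to 5. Each range of one genotype overlapped that of the other. The 95% intervals of the fold change were 0.883 to 1.06 for *Ifnar1* and 0.890 to 1.07 for *Ifnar2*, with adjusted p-values of 0.846 and 0.895 (edgeR quasi-likelihood fit).

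**Figure D2:**
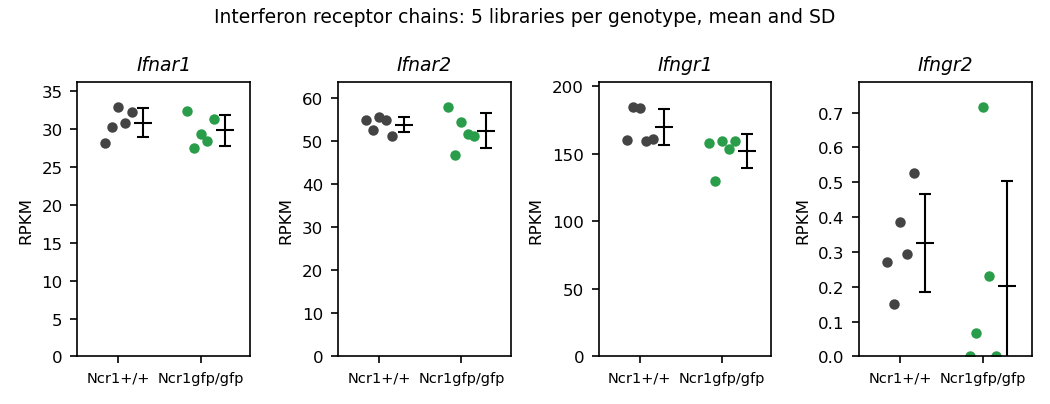
RPKM (y axis from 0, a scale of its own in each panel) of the 4 receptor chains in each library, with mean and SD beside the points; the SD bar of *Ifngr2* in Ncr1gfp/gfp is cut at 0. The points of the genotypes overlap in every panel, and *Ifngr2* stays under 1 RPKM in all 10 libraries.

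Sensors of viral nucleic acid comprised *Ddx58* (RIG-I) and *Ifih1* (MDA5), which recognize viral RNA, *Dhx58* (LGP2), which modulates both, and *Zbp1*, which recognizes Z-form nucleic acid. All 4 had a log2 fold change above 0, from 0.04 to 0.26 with a median of 0.09, where 50.7% of all tested genes were above 0. *Ddx58* had 272, 264, 270.0, 289.9 and 298 CPM in Ncr1+/+ and 309, 294, 303, 313 and 297 CPM in Ncr1gfp/gfp replicates 1 to 5. Ncr1+/+ replicate 5 reached into the Ncr1gfp/gfp range, and the other 4 Ncr1+/+ libraries lay below it. This came to a log2 fold change of 0.12 ± 0.05 (SE) with an adjusted p of 0.348 by the edgeR quasi-likelihood fit, and to p = 0.0238 by the 2-sided exact permutation test.

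*Ifih1* had 46.6, 42.5, 48.0, 47.6 and 56.1 CPM in Ncr1+/+ and 77.7, 50.9, 52.4, 55.7 and 51.5 CPM in Ncr1gfp/gfp replicates 1 to 5. Replicate 1 of Ncr1gfp/gfp stood above all others. By edgeR its log2 fold change was 0.26 ± 0.11 (SE; adjusted p = 0.353), and by the 2-sided exact permutation test p was 0.0873. Without that library the log2 fold change was 0.13, and the unadjusted p rose from 0.0303 to 0.177. *Zbp1* and *Dhx58* had log2 fold changes of 0.05 and 0.04.

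Antiviral effectors formed the largest group, with 17 genes, of which 16 were tested: 8 had a higher and 8 a lower mean in Ncr1gfp/gfp ILC1s, and the median log2 fold change was 0.00 when rounded to 2 decimals. *Samhd1*, a phosphohydrolase that depletes deoxynucleotides, was the most abundant of them at 73.0 ± 6.06 RPKM in Ncr1+/+ and 66.3 ± 5.29 RPKM in Ncr1gfp/gfp ILC1s (SD, n = 5 each). It had 300.2, 268, 331, 284 and 281 CPM in Ncr1+/+ and 253, 262, 295, 242 and 278 CPM in Ncr1gfp/gfp replicates 1 to 5. The ranges overlapped, with 3 Ncr1gfp/gfp libraries below all Ncr1+/+ libraries. In the edgeR quasi-likelihood fit the log2 fold change was -0.14 ± 0.07 (SE, adjusted p = 0.430), and the 2-sided exact permutation test of CPM gave p = 0.0952.

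*Ifit1*, which binds viral RNA that lacks the host's cap methylation, had 22.5, 18.9, 21.6, 20.7 and 26.9 CPM in Ncr1+/+ and 26.7, 26.1, 25.9, 27.1 and 25.2 CPM in Ncr1gfp/gfp replicates 1 to 5. The Ncr1gfp/gfp libraries were close together at the top of the Ncr1+/+ range, with replicate 5 of Ncr1+/+ among them. This came to a log2 fold change of 0.24 ± 0.11 (SE) with an adjusted p of 0.389 by the edgeR quasi-likelihood fit, and to p = 0.0397 by the 2-sided exact permutation test. Among its neighbours on chromosome 19, the log2 fold change was -0.05 for *Ifit2* and -0.27 for *Ifit3*, with adjusted p-values of 0.904 and 0.817 from the same edgeR test. All 3 overlap the positions listed for *Gm38437*, *Mir3084-1* and *Snora19* on the opposite strand. Reads common to *Ifit3* and the near-identical *Ifit3b* may be left out or counted for either gene.

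The other effectors spread widely where they were scarce. *Mx1* had 34.7 ± 3.90 CPM in Ncr1+/+ and 39.1 ± 4.90 CPM in Ncr1gfp/gfp ILC1s (SD, n = 5 each), with an adjusted p of 0.592 (edgeR quasi-likelihood fit). The oligoadenylate synthetase genes, whose products activate RNase L or act beside it, had log2 fold changes of 0.05 for *Oas3*, -0.10 for *Oas1a*, -0.13 for *Oasl1* and -0.27 for *Oasl2*, all with an adjusted p above 0.8 (edgeR quasi-likelihood fit). *Rsad2* (viperin) was at 7.53 ± 1.84 and 5.95 ± 2.10 CPM, *Eif2ak2* (protein kinase R) at 74.8 ± 10.4 and 77.1 ± 5.87 CPM, and *Bst2* (tetherin) at 18.0 ± 2.91 and 18.6 ± 1.58 CPM, in Ncr1+/+ and Ncr1gfp/gfp ILC1s (SD, n = 5 each). *Isg20*, an exonuclease, and *Cmpk2*, a nucleotide kinase of mitochondria, had log2 fold changes of 0.31 and 0.19. Reads common to *Oas1a* and its near copy *Oas1g* may likewise be left out or counted for either gene.

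Of the effectors, 3 were under 1 RPKM on average over the 10 libraries. *Ifi44* had counts of 33, 10, 15, 26 and 22 in Ncr1+/+ and 1, 0, 0, 25 and 4 in Ncr1gfp/gfp replicates 1 to 5. The log2 fold change with the largest size of the 43 genes, -1.64, came from these few counts, and its interval reached from 0.0892 to 1.15 in fold (adjusted p = 0.512, edgeR quasi-likelihood fit). *Oas2* had counts of 14, 26, 0, 3 and 31 in Ncr1+/+ and 5, 1, 0, 1 and 5 in Ncr1gfp/gfp replicates 1 to 5, and was left out of the test by the filter on low counts (2-sided exact permutation test of CPM, p = 0.119). *Mx2* had 27 to 56 counts in Ncr1+/+ and 14 to 79 in Ncr1gfp/gfp libraries.

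The ISG15 system was represented by *Isg15*, the ubiquitin-like modifier, *Herc6*, the ligase that attaches it in mice, *Usp18*, the protease that removes it and restrains IFNAR2, and *Trim25*, a ubiquitin ligase that is itself modified. *Isg15* had 13.6 ± 2.18 CPM in Ncr1+/+ and 12.1 ± 1.62 CPM in Ncr1gfp/gfp ILC1s (SD, n = 5 each), with an adjusted p of 0.784. *Herc6* was the one with a positive log2 fold change, 0.12, and *Trim25*, *Usp18* and *Isg15* had -0.06, -0.15 and -0.16. None of the 4 reached an unadjusted p under 0.05 (edgeR quasi-likelihood fit).

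Interferon-inducible GTPases, which gather on pathogen-containing vacuoles, numbered 7: the guanylate-binding protein genes *Gbp2*, *Gbp3* and *Gbp7* and the immunity-related GTPase genes *Igtp*, *Irgm1*, *Ifi47* and *Iigp1*. The first 6 of these had log2 fold changes between -0.10 and 0.10. *Ifi47* had 239.7, 267, 277, 282 and 284 CPM in Ncr1+/+ and 268, 343, 290.4, 267 and 275 CPM in Ncr1gfp/gfp replicates 1 to 5. Apart from the high replicate 2 of Ncr1gfp/gfp and the low replicate 1 of Ncr1+/+, the libraries lay between 267 and 290.4 CPM in both genotypes. The adjusted p was 0.675 (edgeR quasi-likelihood fit; 2-sided exact permutation test, p = 0.381). In the table, *Ifi47* overlaps *Olfr56* on the same strand.

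*Iigp1* had the fitted difference of largest size in this family. It had 9.25, 2.69, 6.40, 6.91 and 6.91 CPM in Ncr1+/+ and 3.05, 3.15, 3.23, 1.25 and 2.62 CPM in Ncr1gfp/gfp replicates 1 to 5. Of the Ncr1+/+ libraries, 4 lay above all Ncr1gfp/gfp libraries, and replicate 2 lay within their range. The counts behind these values were 165, 61, 128, 137 and 127 in Ncr1+/+ and 48, 69, 61, 21 and 44 in Ncr1gfp/gfp ILC1s.

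The mean of *Iigp1* in Ncr1gfp/gfp ILC1s was 0.413 times that in Ncr1+/+ ILC1s, with a log2 fold change of -1.27 (standard error 0.33) and a 95% interval of the fold change from 0.258 to 0.670. The adjusted p of 0.0634 missed the threshold (edgeR quasi-likelihood fit; unadjusted p = 0.00100; 2-sided exact permutation test, p = 0.0317). Without Ncr1+/+ replicate 2, the library that overlapped, the log2 fold change was -1.46 with an adjusted p of 0.0157. Over the other settings tried, the adjusted p ranged from 0.00937 with DESeq2 to 0.165. The near copy *Gm4951* had 20 counts in all 10 libraries together.

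The remaining 8 induced genes all had a log2 fold change above 0, from 0.03 to 0.30 with a median of 0.07. *Rtp4*, a chaperone that restrains flaviviruses, had 30.7, 31.2, 34.9, 32.8 and 37.7 CPM in Ncr1+/+ and 42.4, 51.2, 39.7, 41.6 and 27.4 CPM in Ncr1gfp/gfp replicates 1 to 5. Of the Ncr1gfp/gfp libraries, 4 lay above the Ncr1+/+ range and replicate 5 lay below it. By edgeR its log2 fold change was 0.28 ± 0.13 (SE; adjusted p = 0.393), and by the 2-sided exact permutation test p was 0.119.

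*Xaf1*, which opposes the apoptosis inhibitor XIAP, had 17.4, 24.9, 25.8, 21.7 and 25.0 CPM in Ncr1+/+ and 35.6, 28.7, 27.8, 25.6 and 24.2 CPM in Ncr1gfp/gfp replicates 1 to 5. The ranges met between 24.2 and 25.8 CPM, with replicate 1 the lowest of Ncr1+/+ and the highest of Ncr1gfp/gfp ILC1s. In the edgeR quasi-likelihood fit the log2 fold change was 0.30 ± 0.13 (SE, adjusted p = 0.347), and the 2-sided exact permutation test of CPM gave p = 0.0635. Without Ncr1gfp/gfp replicate 1, the unadjusted p rose from 0.0286 to 0.112.

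*Epsti1*, *Sp100* and *Parp14* were among the most abundant interferon-stimulated genes. *Epsti1* had 446, 388, 411, 385 and 366 CPM in Ncr1+/+ and 431, 452, 426, 428 and 404 CPM in Ncr1gfp/gfp replicates 1 to 5, with an adjusted p of 0.524 (edgeR quasi-likelihood fit; 2-sided exact permutation test, p = 0.111). *Sp100*, a nuclear body component, had 579, 525, 577, 538 and 525 CPM in Ncr1+/+ and 559.7, 552, 556, 598 and 574 CPM in Ncr1gfp/gfp replicates 1 to 5 (adjusted p = 0.787 and exact permutation p = 0.222). *Parp14*, an ADP-ribosyltransferase, had 447, 419, 424, 443 and 436 CPM in Ncr1+/+ and 486, 522, 428, 437 and 436 CPM in Ncr1gfp/gfp replicates 1 to 5 (adjusted p = 0.599 and exact permutation p = 0.238). The ranges overlapped for all 3 genes. For *Epsti1* only replicate 2 of Ncr1gfp/gfp and for *Sp100* only replicate 4 lay above the Ncr1+/+ range, and for *Parp14* replicates 1 and 2 of Ncr1gfp/gfp were the only ones above the Ncr1+/+ range. *Parp9* and *Dtx3l*, partners in one ubiquitin ligase complex and neighbours that overlap on opposite strands, had log2 fold changes of 0.03 and 0.03, and *Ifi35* had 0.04.

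**Figure D3:**
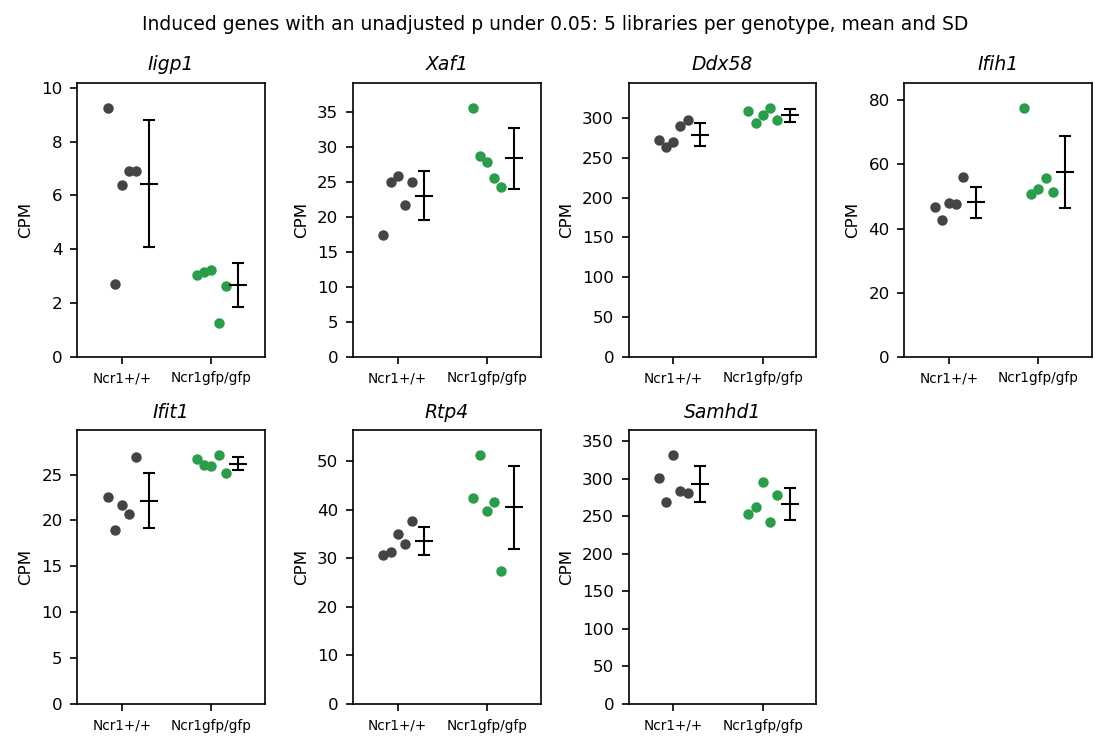
CPM (y axis from 0, a scale of its own in each panel) of the 7 interferon-stimulated genes with an unadjusted p under 0.05 in each library, with mean and SD (n = 5) beside the points. In each panel at least 1 library of one genotype lies within the range of the other; for *Iigp1* it is Ncr1+/+ replicate 2, at 2.69 CPM.

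The level of the 40 interferon-stimulated genes per length spanned a wide range in these liver ILC1s. Over the 10 libraries, 8 genes had a mean of 50 RPKM or more, 15 had 10 to under 50 RPKM, 14 had 1 to under 10 RPKM and 3 had less than 1 RPKM. The highest was *Epsti1* with 178 RPKM, and the classical effectors were in the middle and at the bottom of the order: *Mx1*, *Ifit2* and *Isg15* lay between 10 and 50 RPKM, *Ifit1*, *Ifit3*, *Rsad2*, *Usp18* and *Oas1a* below 10 RPKM. How tightly a difference could be bounded followed the level. The 23 tested interferon-stimulated genes at 10 RPKM or more had a median biological coefficient of variation of 0.0892, and all 23 had an interval within 1.5-fold either way. For the 16 at lower levels the median was 0.213, and 8 had such an interval. Over all tested genes the medians were 0.0949 and 0.236, and 5875 of 6116 and 2252 of 5347 genes had such an interval.

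**Figure D4:**
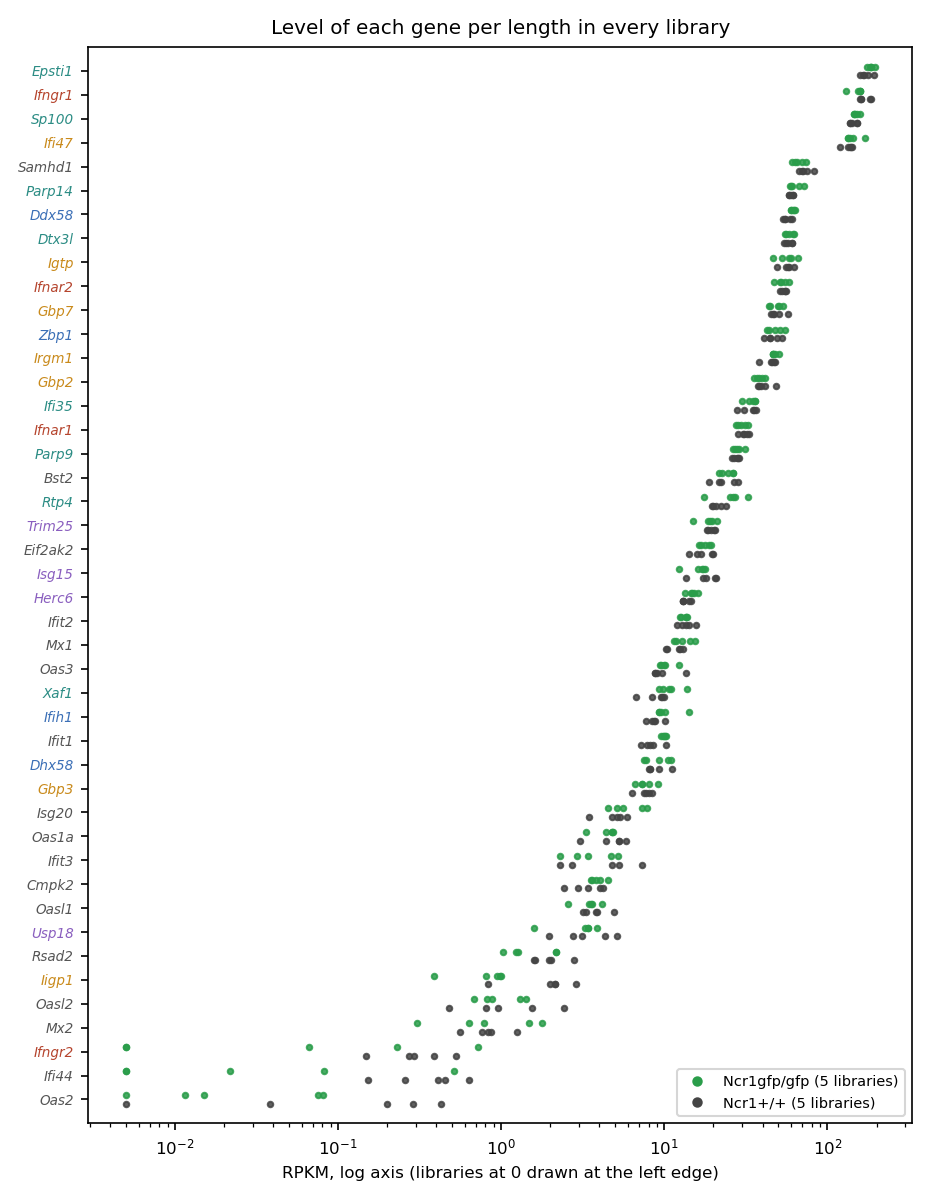
RPKM on a log axis of each of the 44 genes in every library, ordered by the mean, with libraries at 0 drawn at the left edge and gene names coloured by role as in the plot of fold changes. The points of the genotypes overlap for every gene, and only *Ifngr2*, *Ifi44* and *Oas2* have libraries at 0.

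Over the whole set, the libraries of the genotypes overlapped. The summed level of the interferon-stimulated genes was 3827 to 4160 CPM in Ncr1+/+ ILC1s, with a median of 4090.4, and 3980.2 to 4372 CPM in Ncr1gfp/gfp ILC1s, with a median of 4136. To give each gene the same weight, the deviation of log2(CPM + 1) from its mean over the 10 libraries was taken, and the median over the 39 tested interferon-stimulated genes was read in each library. It was -0.0013, -0.12, -0.02, -0.08 and 0.09 in Ncr1+/+ and 0.06, 0.11, -0.05, 0.01 and -0.07 in Ncr1gfp/gfp replicates 1 to 5. High and low libraries occurred in both genotypes. Ncr1gfp/gfp replicate 2 was the highest library for 10 of the 39 genes, and Ncr1+/+ replicate 2 was the lowest for 12.

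**Figure D5:**
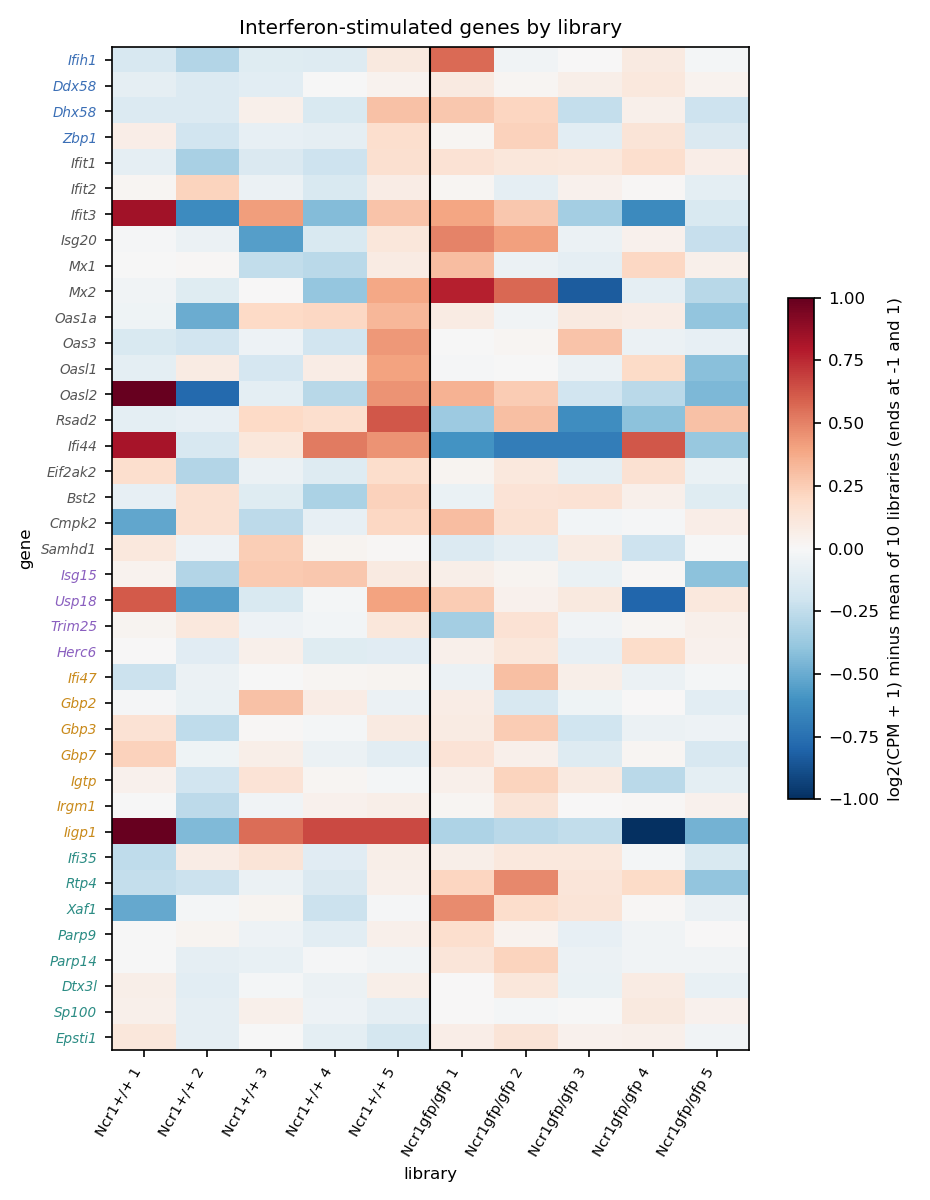
Deviation of log2(CPM + 1) from the mean of the 10 libraries for the 39 tested interferon-stimulated genes (rows, names coloured by role as in the plot of fold changes) in each library (columns); red is higher, blue is lower, and the colours end at -1 and 1. Strong colours occur in the scarce genes such as *Ifit3*, *Mx2*, *Oasl2*, *Ifi44* and *Iigp1*, and the abundant genes are pale in both genotypes.

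Genes above and around this set were read from 3 lists of the same pathway. Of 36 genes for interferons and direct signalling in the table, 18 were tested, and 1 fell, where 0.733% of all tested genes were called. This gene, *Socs3*, a feedback inhibitor of cytokine receptors, was at 28.8 ± 4.51 CPM in Ncr1+/+ and 16.9 ± 3.10 CPM in Ncr1gfp/gfp ILC1s (SD, n = 5 each), with a difference of -0.76 ± 0.14 on the log2 scale (SE, adjusted p = 0.00404 by edgeR). Every Ncr1gfp/gfp library was below every Ncr1+/+ library, and when any 1 library was removed the adjusted p of *Socs3* stayed between 0.00291 and 0.0193. The list had 5 of 18 genes at an unadjusted p under 0.05, 1 higher (*Ptpn11*) and 4 lower, against the background of 11.4%.

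*Ifng*, the interferon-γ gene, had 197, 174, 165, 203 and 133 CPM in Ncr1+/+ and 104, 119, 122, 175 and 123 CPM in Ncr1gfp/gfp replicates 1 to 5. Replicate 4 of Ncr1gfp/gfp was as high as the middle of the Ncr1+/+ range, and the other 4 lay below every Ncr1+/+ library. By edgeR the log2 fold change came to -0.44 ± 0.12 (SE, adjusted p = 0.0683). Of 17 other interferon genes in the table, 16 had no count in any library, and *Ifnk* had 5 counts in all 10 libraries together.

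Below the receptors, *Jak2*, the kinase that serves IFNGR2, was at 545 ± 35.6 and 485 ± 16.03 CPM in Ncr1+/+ and Ncr1gfp/gfp ILC1s (SD, n = 5 each; log2 fold change -0.17, adjusted p = 0.129), and *Irf8*, an interferon-γ-induced transcription factor, at 150.4 ± 9.28 and 128 ± 6.92 CPM (log2 fold change -0.24, adjusted p = 0.0735). For both, the libraries of the genotypes did not overlap, as for 3.11% of all tested genes, and neither passed an adjusted p under 0.05. *Jak1* and *Tyk2* had log2 fold changes of -0.03 and -0.07. The transcription factor genes *Stat2* and *Irf9*, which act in the response to type I interferon, had -0.08 and 0.02, and *Irf1*, *Irf2* and *Irf7* had -0.03, -0.05 and 0.01, all with an adjusted p above 0.7 (edgeR quasi-likelihood fit).

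Of 21 genes for nucleic acid sensing and its adaptors in the table, 19 were tested and 0 passed an adjusted p under 0.05. At an unadjusted p under 0.05 there were 2 genes, or 10.5% (edgeR quasi-likelihood fit): *Irf5* at 44.1 ± 4.76 and 37.6 ± 2.58 CPM and the scarce *Tlr7* at 0.572 ± 0.523 and 1.77 ± 1.19 CPM, in Ncr1+/+ and Ncr1gfp/gfp ILC1s (SD, n = 5 each).

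Of 98 further interferon-induced genes in the table, 89 were tested, and 1 fell, against the 0.733% called among all tested genes, so that a single call is close to the background. *Casp4*, the inflammatory caspase that senses lipopolysaccharide (known as caspase-11), had 24.8, 23.1, 21.7, 18.0 and 23.4 CPM in Ncr1+/+ and 19.1, 8.59, 11.3, 12.7 and 11.5 CPM in Ncr1gfp/gfp replicates 1 to 5. Replicate 1 of Ncr1gfp/gfp was above the lowest Ncr1+/+ library, and the other 4 were below all of them. By edgeR the log2 fold change came to -0.82 ± 0.17 (SE, adjusted p = 0.0139), and when any 1 library was removed the adjusted p of *Casp4* stayed between 0.000754 and 0.0416. At an unadjusted p under 0.05 there were 13 genes, or 14.6%, of which 4 were higher (*Ifitm1*, *Gbp8*, *Trim5* and *Trim14*) and 9 lower. Among the lower, *Slfn5* was at 35.2 ± 6.59 and 24.3 ± 4.49 CPM, *Ly6e* at 1111 ± 52.1 and 989 ± 52.2 CPM and the chemokine gene *Cxcl10* at 8.98 ± 4.35 and 5.11 ± 2.54 CPM in Ncr1+/+ and Ncr1gfp/gfp ILC1s (SD, n = 5 each), with adjusted p-values of 0.0560, 0.0861 and 0.358. Over the 89 genes the median log2 fold change was -0.02, with 37 above and 52 below 0.

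Markers of other cells were read beside these results. The summed level of 8 T cell genes was 461 to 579 CPM in Ncr1+/+ and 633 to 835 CPM in Ncr1gfp/gfp ILC1s, most of it from *Cd3g*. *Cd3e* was at 2.80 to 6.85 and 9.05 to 38.8 CPM and *Cd8a* at 1.35 to 9.70 and 11.8 to 36.4 CPM, also with no overlap. Of the 8 genes, 7 had the higher mean in Ncr1gfp/gfp ILC1s, and the scarce *Cd8b1* had the lower. *Cd4* overlapped, at 0.897 to 3.13 and 0.741 to 4.46 CPM. The sum of 8 natural killer cell genes was 432 to 474 and 478 to 542 CPM. Neither sum overlapped between the genotypes (2-sided exact permutation test, p = 0.00794 each). In the natural killer cell list *Itgam* was at 43.3 to 58.8 and 76.0 to 121 CPM, whereas the most abundant gene, *Prf1*, was at 328 to 366 and 325 to 379.5 CPM. The sum of 5 dendritic cell genes also did not overlap, at 1329 to 1462 and 1654 to 1767 CPM, nearly all of it *Itgax*. Only 2 of these 5 genes had the higher mean in Ncr1gfp/gfp ILC1s. *H2-Ab1* was lower there on average and overlapped, at 3.20 to 14.6 and 2.56 to 6.31 CPM. The part of these differences in the values of the interferon genes was not tested. *Siglech*, which defines plasmacytoid dendritic cells, the main makers of type I interferon, was at most 1.14 CPM in any library, and the sum of 10 macrophage and monocyte genes was 16.3 to 72.1 CPM in Ncr1+/+ and 10.4 to 50.3 CPM in Ncr1gfp/gfp ILC1s.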

How the data were processed

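Libraries of liver ILC1s (5 Ncr1+/+, 5 Ncr1gfp/gfp) were made by the authors with SMART-Seq v4 from 2 ng of RNA and sequenced as single reads of 51 cycles. After trimming and STAR alignment, the authors deposited raw HTSeq counts per gene. The methods name mm10 for the alignment, but the positions in the count table differ from that build, and the table names none. The kit does not mark strand, so the counts of overlapping genes are uncertain, as reads may be left out or given to either gene. The methods name default HTSeq settings, and how these treated such reads was not examined. Genes were filtered with filterByExpr (11463 of 24564 kept), scaled by TMM and tested in edgeR 4.0.16 (R 4.3.3; glmQLFit and glmQLFTest) with genotype as the only variable. Benjamini-Hochberg adjustment ran over all tested genes. Single values were tested with 2-sided exact permutation tests (scipy 1.17.1). CPM and RPKM were computed from TMM-scaled totals and the table's exon lengths; 95% intervals used the standard error and degrees of freedom of the fit. The detection limit of 3 counts covers counting error only. Alternatives used DESeq2 1.42.0, limma 3.58.1, other scaling and filters, a replicate block and leaving out each library. The fit was also run on counts simulated from its own model, which cannot show how well that model describes these libraries. No libraries of one genotype agreed within sampling noise.

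The genes and lists were chosen with earlier results of these data known. Genes given in full are the receptors, those with an unadjusted p under 0.05 or without overlap, and the 5 most abundant interferon-stimulated genes by RPKM. *Isg15*, *Mx1*, *Rsad2*, *Eif2ak2*, *Bst2*, *Ifi44*, *Oas2*, *Mx2* and other genes given by mean or count were picked by role or level after their values were seen.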

Additional observations from a re-analysis of the deposited data

Results flagged for a closer look

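Of 48 groups of 5 libraries examined, 4 held a library far from the other 4 by Dixon's criterion, where chance gives about 1 in 20 groups, or 2.4. *Ifih1* was at 77.7 CPM in Ncr1gfp/gfp replicate 1, with the next library at 55.7 CPM. *Ifngr1* was at 274 CPM in Ncr1gfp/gfp replicate 2, with the next at 324 CPM. The median deviation of log2(CPM + 1) over the 4 nucleic acid sensors was 0.13 in Ncr1+/+ replicate 5, against -0.09 in the next library, and that over the 7 interferon-inducible GTPases was -0.19 in Ncr1+/+ replicate 2, against 0.02.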

How the results depend on the processing

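No gene of the set was called with the quasi-likelihood test as designed; 8 had an unadjusted p under 0.05. The count of called genes, and that at an adjusted p under 0.05 alone, was 1 with DESeq2, 1 without a filter on low counts, 1 with a minimum of 10 counts in every library, and 0 to 1 when each library was left out. The gene was *Iigp1* each time, and without Ncr1+/+ replicate 2 its call was gained. Over all tested genes, 84 of 11463 were called as designed and 126 of 11463 with DESeq2. Without the filter 131 of 16610 were called, with the minimum of 10 counts 92 of 10381, and 60 to 98 when each library was left out. Counting unadjusted p under 0.05 with no fold threshold gave 8 genes, or 18.6%, against 11.4% of all tested genes. It gave 2 to 8 when each library was left out, and the share over all genes in those fits is not given here. The cause of these moves was not tested. The log2 fold change of *Ifnar2* was -0.077 to 0.00037 when each library was left out, and changed sign without Ncr1gfp/gfp replicate 2. The median log2 fold change of the 43 genes was -0.00078 to 0.05 over the fits without 1 library and -0.01 to 0.04 over the others. Same-numbered libraries did not deviate together (r from -0.03 to 0.06), and only replicate 1 correlated best with its own number. This cannot show whether the samples were collected or processed in pairs. With the replicate block 0 genes of the set were called, against 87 of all 11463 tested genes, and the median was 0.03. *Ifngr2*, *Ifi44*, *Oas2* and *Mx2* had few counts, and *Ifngr2* and *Ifi44* also varied widely between libraries. The log2 fold change of *Ifngr2* ranged from -2.14 to -0.35 over the alternatives.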
